A study of Mus musculus with 10 samples.

Results

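Of 15661 barcodes from wild-type mouse hippocampus, 65 met a count rule for excitatory nuclei led by Cux2 or Rorb, and they are called Cux2/Rorb nuclei here. They were chosen by their own counts in this matrix. The rule asked for at least 500 UMIs (unique transcript molecules counted in a nucleus). It asked for at least 2 UMIs of the excitatory neuron genes Slc17a7, Sv2b and Arpp21 together. It allowed at most 1 UMI of Gad1 and Gad2 together, at most 1 of Dcn, and at most 1 of Prox1 and Glis3 together. The sum of Cux2 and Rorb had to reach 3 UMIs and exceed 3 other sums, namely Foxp2 with Tle4, Fn1 with Nts and Tshz2, and a CA-type sum of Nectin3, Trps1, Cpne4, Ccbe1, Adamts9 and Iyd. The criteria for excitatory nuclei alone left 6356 barcodes, of which the 65 were 1.02% (exact binomial 95% interval 0.790 to 1.30%).

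All 10 samples in the labels form 1 group of C57B/6J mice with wild-type genotype, aged 4 to 7 months, whose hippocampus was taken without any stimulation. Titles of 3 samples name 4 months, 4 others call the animals controls of an RNASET2 experiment, and the rest carry only a number, while the stated strain, genotype and age are the same for all. Nuclei from frozen tissue were stained with 7AAD, sorted and loaded at about 5000 per sample for 10x Genomics 3' libraries. The deposited matrix pools everything under 7 barcode suffixes, called sets 1 to 7 here, and the labels do not say which samples a set holds, so the nuclei are 1 sample. No replicate error exists for any value below, no test was run, and every interval (95%) covers counting error only.

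Cux2 is a cut-type homeobox transcription factor known from the upper layers of the cerebral cortex, where it acts on dendrites and spines of intracortically projecting neurons. Rorb is a retinoid-related orphan nuclear receptor known for layer 4 neurons of sensory cortex, and it is also expressed in other brain regions. The hippocampus proper has no such layers. A hippocampal dissection can take in neighbouring subiculum, entorhinal and retrosplenial cortex, white matter and thalamus. Cux2 in this tissue is not restricted to excitatory neurons: interneurons and precursor cells are known to use it.

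On GRCm38 with GENCODE M21, Cux2 lies on chromosome 5 from 121856366 to 122050102 on the minus strand, where annotated Gm3970 and Gm15637 overlap it on the other strand. Rorb lies on chromosome 19 from 18930605 to 19111196, also on the minus strand. Whether counting used strand or intronic reads is not given in the sources used here.

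Rorb supplied most of the UMIs that chose these nuclei. The 65 nuclei held 370 Rorb and 80 Cux2 UMIs, which is 828 CPM (a gene's UMIs scaled by the total of the pooled nuclei, the usual CPM scale) of Rorb and 179 CPM of Cux2, against 23.6 and 44.1 CPM in the 6291 other excitatory nuclei. These differences describe the rule and are not results. Rorb exceeded Cux2 in 47 nuclei, Cux2 exceeded Rorb in 15, and 3 nuclei had equal numbers. No Cux2 UMI was present in 37 nuclei, no Rorb UMI in 11, and 17 held both. The sum of both genes had a median of 5 UMIs, with at most 6 of Cux2 and 24 of Rorb in 1 nucleus.

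The threshold runs through low counts. Exactly 3 UMIs of Cux2 and Rorb were found in 16 of the 65, whose median depth was 3412 UMIs. A further 13 excitatory nuclei had exactly 2 and led the other sums, with a median depth of 3814 UMIs. In all, 503 excitatory nuclei reached 3 UMIs, and 438 of these were left out because another sum was at least as high: the Tshz2 sum in 315, the CA-type sum in 184 and the Foxp2 sum in 119, with some nuclei counted under more than 1. The excitatory genes were also sparse: Slc17a7, Sv2b and Arpp21 had a median of 8 UMIs together, 27 of the 65 nuclei had at most 5, and 9 had exactly the required 2.

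**Figure D1:**
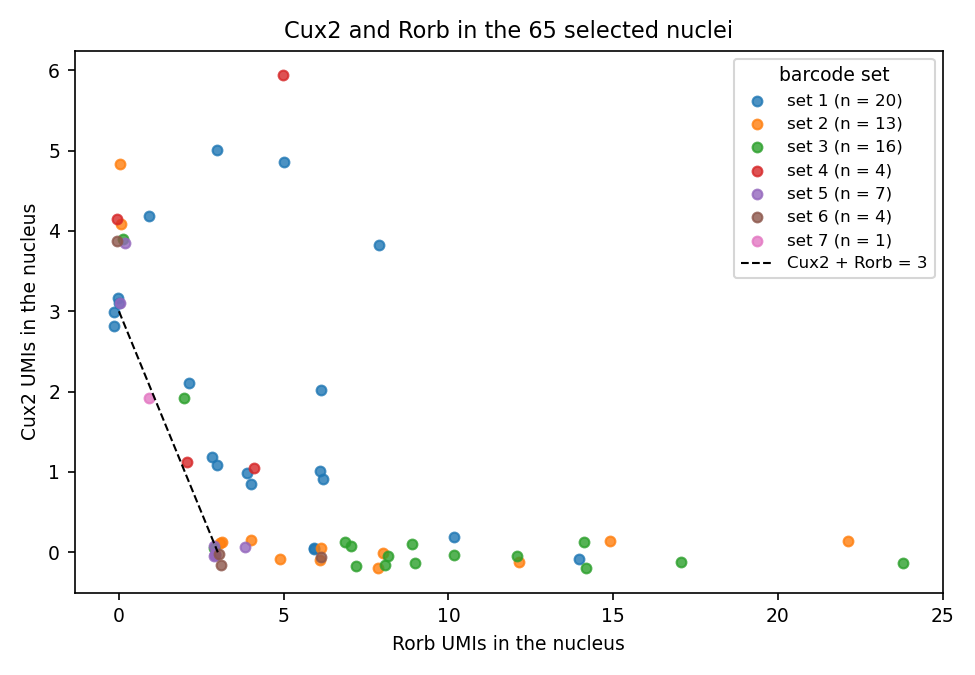
Cux2 UMIs (vertical axis) against Rorb UMIs (horizontal axis) in each of the 65 selected nuclei, coloured by barcode set, with points offset slightly where they coincide. Most points lie along the Rorb axis, up to 24 UMIs, and no nucleus holds more than 6 Cux2 UMIs.

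The nuclei were unevenly spread over the barcode sets. Sets 1 to 7 held 20, 13, 16, 4, 7, 4 and 1 of them, from 672, 1099, 892, 684, 1458, 1531 and 20 excitatory nuclei. Their share of excitatory nuclei was 2.98% in set 1, 1.18% in set 2, 1.79% in set 3, 0.585% in set 4, 0.480% in set 5 and 0.261% in set 6, and 1 of 20 in set 7. Depth was 1044 UMIs in the lowest nucleus, 6094 at the median and 20124 in the highest, 446953 in all. Medians in the groups used for comparison were 5041 UMIs in all other excitatory nuclei, 8827 in 320 Foxp2/Tle4 nuclei, 5303 in 1629 Tshz2/Fn1/Nts nuclei and 10823 in 1829 CA-type nuclei, each of which held at least 3 UMIs of its sum and more of it than of the other sums. Across the matrix, 21 barcode sequences occurred in 2 sets, none of them a Cux2/Rorb nucleus. No nucleus exceeded 3 times the median depth of its set.

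The upper-layer genes as a list did not stand apart in these nuclei. Mdga1, a membrane adhesion protein of superficial layers, was at 15.7 against 72.5 CPM in other excitatory nuclei (4.63-fold lower, interval 2.24 to 11.5). Lamp5 was at 4.47 against 13.3 CPM, short of the 2-fold mark once 5 CPM was added to both sides. Stard8 had no UMI in the 65 nuclei. Calb1, which encodes the calcium-binding protein calbindin, was at 62.6 against 17.9 CPM (3.49-fold higher, interval 2.31 to 5.08), with UMIs in 13 nuclei. Cux1, the paralogue of Cux2, was at 139 against 75.7 CPM, below the 2-fold mark (1.83-fold higher, interval 1.40 to 2.35). Of the 12 upper-layer genes compared, 1 was higher by 2-fold or more and 2 were lower by as much, with a median log2 ratio of 0.07. Over all 12338 genes compared, 4.68% passed the 2-fold mark upwards and 3.93% downwards, with a median of 0.10.

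Genes of layer 4, the layer best known for Rorb, were few and sparse. Only 4 of the list's 8 genes had enough UMIs to compare. None reached 2-fold once 5 CPM was added to both sides, as in all such counts here, with a median log2 ratio of 0.52. Il1rapl2, a synaptic receptor-like protein, was at 639.9 against 338 CPM and Thsd7a at 199 against 99.5 CPM. Scnn1a, Endou and Cyp39a1 had no UMI in the 65 nuclei and Rspo1 had 2.

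Deeper-layer genes were mixed. In the layer 6 and 6b list, 9 of 13 genes were compared, 4 were at least 2-fold higher and 1 was lower, with a median log2 ratio of 0.96. Zfpm2, a GATA cofactor of corticothalamic neurons, was at 895 against 405 CPM (2.21-fold higher, interval 1.996 to 2.44). Sulf1, which trims sulfate from heparan sulfate, was at 103 against 24.7 CPM (4.17-fold higher, interval 3.04 to 5.60). Both differed between sets. In set 1 Zfpm2 was lower, at 152 against 412 CPM, and Sulf1 was at 19.8 against 22.7. Zfpm2 was at 1171 against 430 in set 2 and 1308 against 420 in set 3. Sulf1 was at 177 against 28.4 in set 2 and 128 against 25.4 in set 3. Rprm was at 38.04 against 3.48 CPM, with 8 of the 10 nuclei that held it also holding 3 or more UMIs of Zfhx3, and the synaptotagmin Syt6 at 26.8 against 6.27 CPM. Ntng2, a netrin-G adhesion protein, was the lower one, at 24.6 against 85.8 CPM (3.49-fold lower, interval 1.95 to 6.99).

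The layer 5 list had 1 of 11 genes higher and 3 lower, median -0.61. Pcp4, a calmodulin-binding peptide, was higher at 29.1 against 5.71 CPM, while Etv1, an ETS factor, was lower at 40.3 against 130.4 CPM. Bcl11b, the factor of subcerebral projection neurons, was at 98.4 against 182 CPM, short of the 2-fold mark. Genes of CA1 pyramidal cells were higher in none and lower in 5 of 8 (median -1.22), and those of CA2 and CA3 lower in 2 of 9 (median -0.61). Of these lower genes, 4 of the 5 and 1 of the 2 were beyond counting error.

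**Figure D2:**
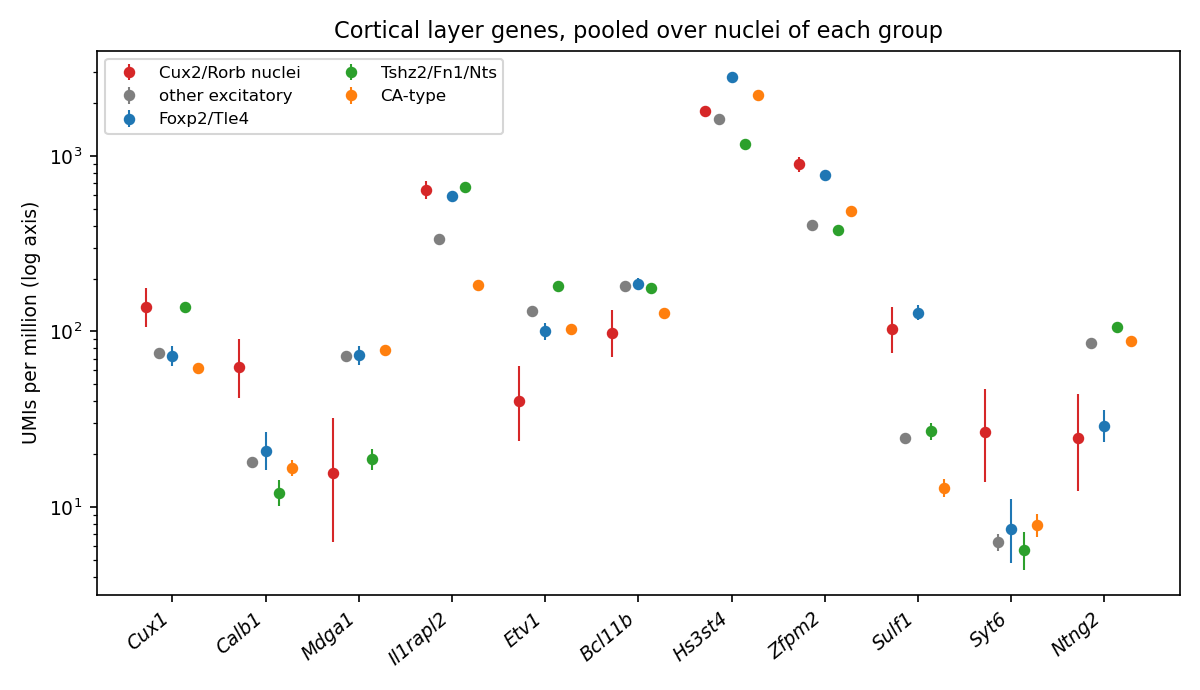
Pooled levels of cortical layer genes (horizontal axis) in CPM (vertical axis, log scale) for the Cux2/Rorb nuclei, all other excitatory nuclei and the 3 groups led by other marker sums; bars are 95% counting intervals. Mdga1 was lower in the Cux2/Rorb nuclei (15.7) than in the Foxp2/Tle4 group (73.1), whereas Sulf1 and Zfpm2 were at 103 and 895.

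Shares of nuclei with a UMI were read beside nuclei that should lack most of these genes, 1092 nuclei with at least 10 UMIs of the myelin gene Mbp and none of the excitatory genes, at a median depth of 2379 UMIs. In the order Cux2/Rorb nuclei, other excitatory nuclei and those Mbp nuclei, Zfpm2 was present in 61.5%, 52.8% and 17.9%, Hs3st4 in 55.4%, 66.2% and 5.59% and Calb1 in 20%, 8.89% and 1.47%. Cux1 was found in 52.3%, 31.7% and 29.2%. After each nucleus was thinned in 1 random draw to 2000 UMIs, which left out 6 of the 65, it was found in 30.5% (exact binomial interval 19.2 to 43.9%), 12.8% and 25.3%, so the level of the Mbp nuclei lay within the interval of the Cux2/Rorb nuclei. Thinned, Calb1 was in 8.47% (2.81 to 18.7%), 3.36% and 0.949%, and Hs3st4 in 45.8% (32.7 to 59.2%), 57.0% and 3.79%. For both, other excitatory nuclei lay within the interval of the Cux2/Rorb nuclei. Thinned Zfpm2 was in 49.2% (35.9 to 62.5%), 35.5% and 15.6%. The values that follow are without thinning. Cux2 itself was present in 18.1% of the Mbp nuclei and in 13.3% of other excitatory nuclei. Rorb was present in 1.47% and 7.04%.

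The 65 nuclei fell into visibly different kinds, which were set apart after their values had been seen and are given as a description only. Each nucleus was given the earliest kind it met in a fixed order. In 6 nuclei the oligodendrocyte and precursor lists together had at least 5 UMIs. Among the rest, Ebf1, Ebf2 and Ebf3 together had at least 5 in 5 nuclei, then Zfhx3 had at least 3 in 14, then Hs3st4 and Zfpm2 together had at least 5 in 28, and 12 met none of these. Whatever their kind, 35 nuclei reached the minimum for Hs3st4 and Zfpm2 and 15 that for Zfhx3. Levels of the genes used to form a kind are no finding about it. Genes given below against the other selected nuclei were picked for their high ratios in these same nuclei, so those ratios are description only.

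The largest kind, 28 nuclei with Hs3st4 or Zfpm2, carried mostly Rorb. It exceeded Cux2 in 27 of them, with 196 Rorb and 3 Cux2 UMIs. Sets 2 to 7 held 10, 10, 1, 4, 2 and 1. Set 1 held none by the order of the kinds: 6 of its nuclei reached the same minimum and were counted under Zfhx3 or Ebf. Hs3st4, a heparan sulfate sulfotransferase (chromosome 7, 123982869 to 124398989, plus strand), and Zfpm2 (chromosome 15, 40655035 to 41104592, plus strand) together had 6 UMIs in the lowest nucleus, 32.5 at the median and 137 in the highest. Sulf1, not used to choose them, was at 192 CPM with a UMI in 18 of the 28. Tle4, a transcriptional corepressor, had a UMI in 22, Foxp2, a forkhead repressor, in 13 and Slc17a7, the vesicular glutamate transporter of cortical neurons, in 20. The rule kept Foxp2 and Tle4 below Cux2 and Rorb in each.

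Genes higher in these 28 than in the other 37 included Oprm1, the mu opioid receptor, at 585 against 41.1 CPM. Rspo2, a secreted Wnt enhancer, was at 265 against 16.4 CPM, Sema3e, a semaphorin, at 334 against 32.9, Rai14 at 226 against 20.5 and Frmpd4, a postsynaptic scaffold protein, at 4025 against 431. In the 320 Foxp2/Tle4 nuclei Oprm1 was at 369 CPM, Rspo2 at 118, Sema3e at 297, Rai14 at 126, Frmpd4 at 3853, Hs3st4 at 2819 and Zfpm2 at 776. All other excitatory nuclei had 1620.3 CPM of Hs3st4, 257 of Sema3e and 2523 of Frmpd4, so high levels of these were not particular to the 28.

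The second kind, 14 nuclei with Zfhx3, lay in set 1, as did all 15 nuclei at the Zfhx3 minimum. Zfhx3 encodes a zinc finger homeobox factor (chromosome 8, 107942644 to 108961630, plus strand). These nuclei had UMIs of Slc17a6, the vesicular glutamate transporter typical of subcortical neurons, in 10, of the factors Sim1 and Lhx1 in 9 each, of Adcyap1, the precursor of the neuropeptide PACAP, in 10 and of Scg2, a secretory granule protein, in 12. No UMI of Slc17a7 was present in any, so they passed the excitatory rule through Sv2b and Arpp21. Against the other 51 nuclei, Cntn5, an axonal contactin, was at 5391 against 636 CPM, Dgkb, a diacylglycerol kinase, at 6490.1 against 803 and Unc13c, a vesicle priming protein, at 769 against 110.4. All other excitatory nuclei had 917 CPM of Cntn5, 1089 of Dgkb and 55.1 of Unc13c. Most of the 51 lay outside set 1, so kind and set cannot be told apart here. Mamdc2 had 23 UMIs in 9 of the 14 and none in the other 51. Rorb exceeded Cux2 in 7, Cux2 exceeded Rorb in 5, and 2 were tied.

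The remaining nuclei were few. The 5 with Ebf UMIs, 2 in set 1 and 3 in set 3, had a median of 14 Rorb UMIs and only 3 UMIs of the excitatory genes, and Cdh7, a cadherin, was at 723 against 14.7 CPM and Dach1 at 1266 against 61.2, each with UMIs in 3 of the 5. The 6 with oligodendrocyte-lineage UMIs, 2 in set 3, 3 in set 4 and 1 in set 5, held 7 to 101 UMIs of those lists, median 16.5. Bcas1, a gene of newly formed oligodendrocytes, had UMIs in all 6 and in none of the other 59, and Tcf7l2 in 4 and in none of the others. Cux2 exceeded Rorb in 3 of these 6, and 1 of them also held 22 UMIs of Hs3st4 and Zfpm2. Among the 12 that met no criterion, 2 held most UMIs of Col8a1 and Cngb3 (77 and 73 in set 1, 39 and 11 in set 2), and 1 in set 3 held 33 UMIs of the astrocyte list beside 14 of Rorb.

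**Figure D3:**
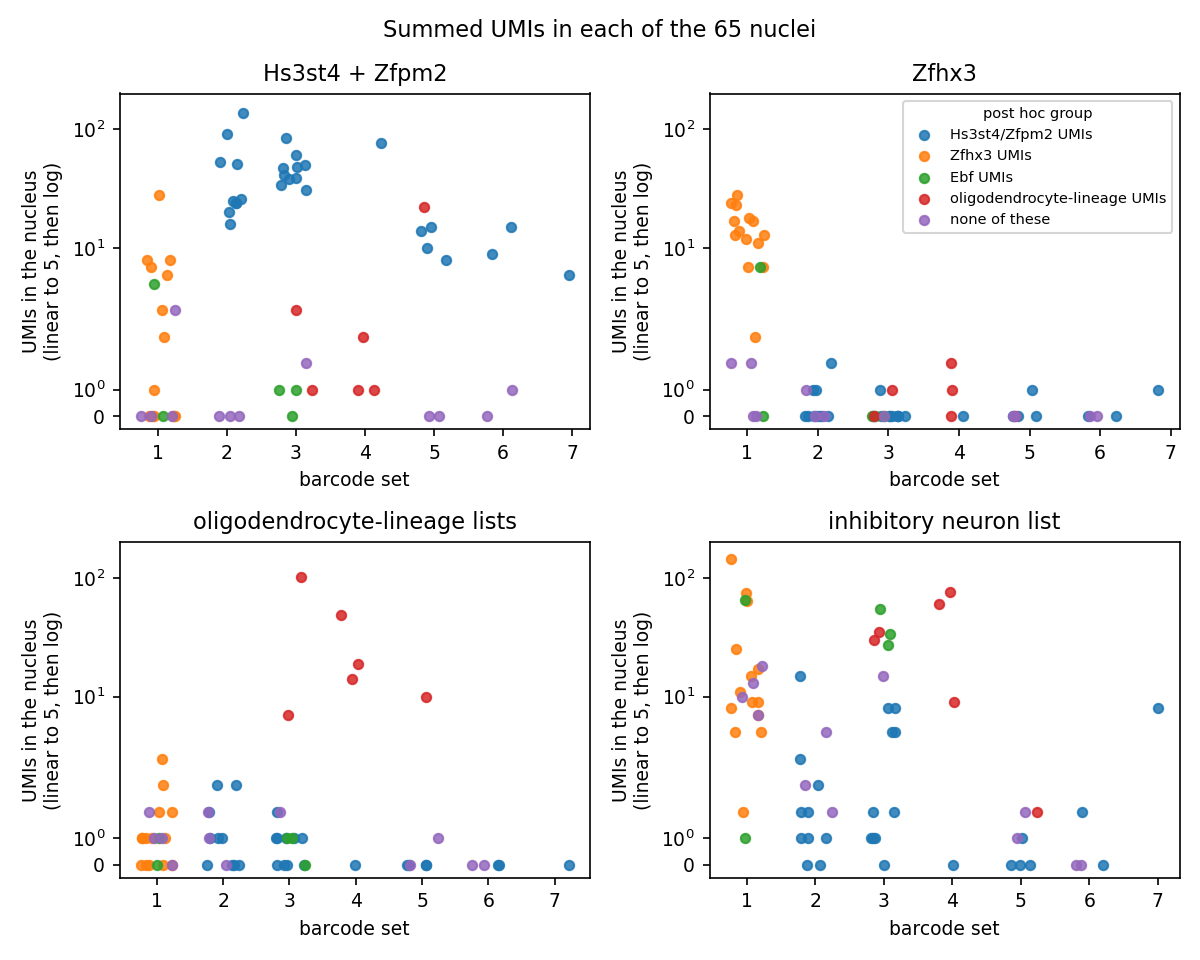
Summed UMIs of gene lists in each of the 65 nuclei (vertical axis, linear to 5 and then logarithmic) by barcode set (horizontal axis), coloured by the kinds of nuclei. The Zfhx3 nuclei are all in set 1, the nuclei counted as Hs3st4/Zfpm2 are in sets 2 to 7 (6 nuclei of set 1 at the same minimum are coloured by an earlier kind), and inhibitory-list UMIs reach 145 in 1 nucleus.

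Markers of other cell classes were present beside the excitatory genes. The 3 higher of 5 compared genes on the inhibitory neuron list were Erbb4, the neuregulin receptor, at 1034 against 176 CPM, Adarb2 at 727 against 136 and Nxph1 at 318 against 73.5, and the whole list summed to 2101 against 397 CPM. Gad1 and Gad2 are held at 1 UMI or fewer by the rule. The list's sum per nucleus ran from 0 to 145 with a median of 5. The median was 1 in the 28 Hs3st4/Zfpm2 nuclei, 10 in the 14 Zfhx3 nuclei and 4 in the 12 that met no criterion. It was highest in the 5 Ebf nuclei, at 34, and was 32.5 in the 6 oligodendrocyte-lineage nuclei. Of 6 thalamic and diencephalic genes compared, Tcf7l2, Slc17a6 and Lef1 were higher, median 0.83, and the Tcf7l2 UMIs lay in the oligodendrocyte-lineage nuclei. All 17 Slc17a6 UMIs lay in set 1, at 112 CPM against 32.2 in other excitatory nuclei of that set.

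Glial and vascular gene UMIs were present in many of the nuclei, with an astrocyte-list UMI in 46 of the 65, while those of Mbp, C1qa and Ebf1 rested on few. The astrocyte list summed to 414 CPM against 312 in other excitatory nuclei, whose share with such a UMI is not given here. Mbp was the 1 higher gene of 8 on the oligodendrocyte list, at 204 against 97.01 CPM, with 75 of its 91 UMIs in the 6 oligodendrocyte-lineage nuclei. Of these, 44 were in 1 nucleus of set 3 and 30 in 1 of set 4. On the precursor list 2 of 4 genes were higher and on the astrocyte list none of 4. C1qa, a complement gene, was the 1 higher of 6 on the microglia list, and 13 of its 15 UMIs were in 1 nucleus. Ebf1, the 1 higher of 2 on the vascular list at 139 against 11.2 CPM, had UMIs in 4 nuclei. No doublet caller was run, and the part of mixed or doubled nuclei in the results was not tested. With every nucleus holding 3 or more UMIs of the glial and vascular lists removed, 22 of the 65 remained. That cut is on UMIs not scaled by depth, so deeper nuclei reach it more easily. Other excitatory nuclei also held UMIs of these lists, with the oligodendrocyte list at 289 CPM against 441 in the 65. The share of them that the cut removes is not given here.

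Against all other excitatory nuclei, 577 of 12338 genes were higher by 2-fold or more (4.68%) and 485 lower by as much (3.93%). The counting interval lay wholly on that side of 1 for all 577 and for 351 of the 485 (2.84% of all genes). The genes with the highest ratios rested on few nuclei. Col8a1, a collagen VIII chain (chromosome 16, 57624258 to 57754737, minus strand), was at 271 against 5.87 CPM, 46.1-fold higher, with UMIs in 6 nuclei, and 17.03-fold higher without the nucleus that held most. Cngb3, a cyclic nucleotide-gated channel subunit, was 17.8-fold higher with and 3.09-fold higher without its top nucleus, the scaffold gene Mpp4 16-fold and 4.43-fold, Mylk, the myosin light chain kinase, 13.4-fold and 4.93-fold, and Car8 25.8-fold and 7.48-fold. In the 22 nuclei with under 3 glial and vascular UMIs, Cngb3, Mpp4 and Car8 were lower than in other excitatory nuclei (log2 -1.28, -0.91 and -0.14).

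Other high genes were spread over more nuclei but several mostly in 1 set. Genes named as highest had to be higher in set 1, here and against the marker-led groups, so being higher there was built into the choice. Zfhx3 had UMIs in 27 nuclei, yet in set 1 it was at 1437 against 202 CPM and in sets 2 to 7 at 40.6 against 18.6 CPM. Sim1 was at 198 against 15.3 CPM in set 1 and 3.39 against 1.62 in the rest, and Adcyap1 at 158 against 14.9 and 3.39 against 1.76. The 3.39 CPM was 1 UMI for each of these genes. Hs3st5, a heparan sulfate sulfotransferase related to Hs3st4, was the widest of the 10 highest. It was at 299.8 against 39.95 CPM (7.50-fold higher, interval 6.25 to 8.94) with UMIs in 34 nuclei, at 277 against 63.3 CPM in set 1 and 312 against 36.2 in sets 2 to 7. The uncharacterised transcript 6330411D24Rik was at 129.8 against 11.9 CPM in 13 nuclei.

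The genes named as lowest had to be lower in set 1, and sets 2 to 7 were not used for that choice. Gm2115 was at 6.71 against 147 CPM (21.9-fold lower, interval 7.49 to 106), Pkp2, a desmosomal plakophilin, at 8.95 against 159 (17.8-fold lower, interval 6.94 to 65.3) and Lrtm1 at 11.2 against 152 (13.6-fold lower, interval 5.81 to 41.8). Trpc4, a cation channel, was at 42.5 against 301 CPM, at 39.6 against 296 in set 1 and 44.03 against 302 in sets 2 to 7. Slit3, a secreted axon guidance ligand, was at 233 against 1518 CPM, Cemip at 2.24 against 46.4, Crispld1 at 2.24 against 45.7 and the kinesin Kif1c at 2.24 against 39.8. Slc2a9 and F2rl2 had no UMI in the 65 nuclei, which with 3 UMIs over the group as the limit is at least 4.30-fold lower and at least 3.85-fold lower.

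**Figure D4:**
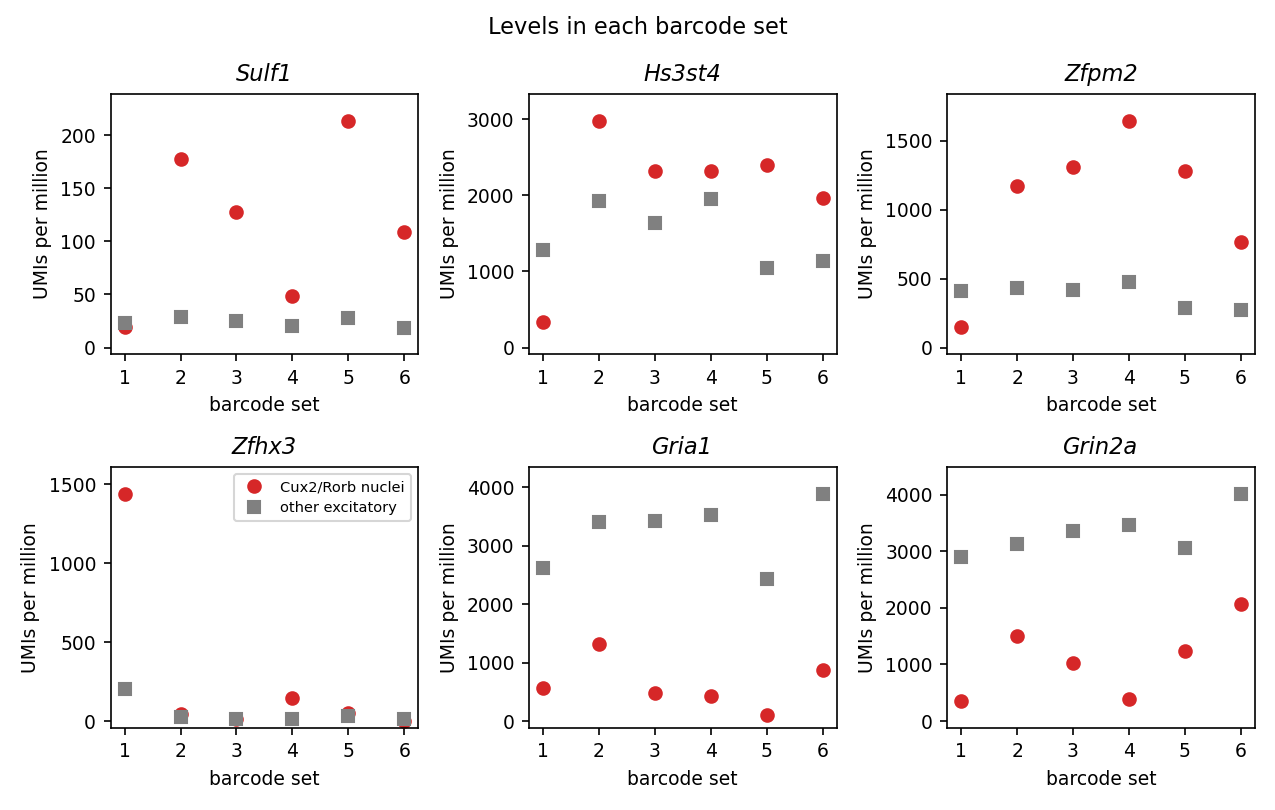
Levels of single genes in CPM (vertical axes) in barcode sets 1 to 6 (horizontal axis; set 7, with 1 Cux2/Rorb nucleus, is not drawn) for the Cux2/Rorb nuclei (circles) and other excitatory nuclei (squares); sets 4 and 6 hold 4 Cux2/Rorb nuclei each. Zfhx3 is high in set 1 (1437 against 202), while Hs3st4 is lower there (336 against 1284) and higher in sets 2 to 6.

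Of 16 ionotropic glutamate receptor genes 3 were lower and 3 higher, beside 3.93% and 4.68% of all genes. Gria1 was at 705 against 3266 CPM (4.63-fold lower, interval 4.15 to 5.19) and lower in sets 1 to 6, with 560.3 against 2613 CPM in set 1, 1313 against 3409 in set 2 and 107 against 2428 in set 5. Grin2a was at 922 against 3277 CPM (3.55-fold lower, interval 3.23 to 3.92), with 363 against 2892 in set 1 and 1509 against 3129 in set 2; set 7, with 1 selected nucleus, had no UMI of either gene in it. Grik4, a kainate receptor subunit known from CA3, was at 213 against 500.3 CPM. Among the higher were the kainate subunit Grik3 (286 against 91.8) and the NMDA subunit Grin3a (175 against 78.9). The median of the 16 was -0.28. The metabotropic receptors had 2 higher of 7 and none lower, median 0.56: the presynaptic receptor Grm8 at 1056 against 417 CPM and Grm4 at 35.8 against 13.3.

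Channel genes passed the 2-fold mark about as often as all genes, of which 4.68% were higher and 3.93% lower. The voltage-gated potassium list had 1 higher and 1 lower of 18, median -0.32: Kcnc1, a fast delayed rectifier, at 93.97 against 42.6 CPM and Kcnd2, which carries A-type current, at 1789.9 against 3599.6 CPM. Of 15 sodium, calcium and HCN channel genes 1 was lower, Scn3b, at 35.8 against 91.3 CPM, median -0.36. The GABA-A receptor list had 1 higher and 1 lower of 12 (the lower within counting error), median -0.16.

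Adhesion and guidance lists are given beside the 4.68% of all genes that were higher and the 3.93% that were lower. Of 20 cadherins 4 were higher and 2 lower, median 0.51, among them Pcdh15 at 2680.4 against 737 CPM (3.64-fold higher, interval 3.43 to 3.85), Cdh18 at 962 against 409, and Cdh9 at 112 against 230.1. Of 22 synaptic adhesion genes 3 were higher and 1 lower, median 0.29: the leucine-rich postsynaptic proteins Lrrtm3 at 926 against 259 CPM and Lrrtm4 at 5432 against 2592, the teneurin Tenm1 at 904 against 435, and neurexin Nrxn3 lower at 2065 against 6136. Against the Tshz2/Fn1/Nts nuclei 1 of these 22 was higher and 2 lower, median -0.23. Of 27 guidance genes 4 were higher and 8 lower (7 beyond counting error), median -0.39. The ephrin receptor Epha6 was at 888 against 4298 CPM (4.84-fold lower, interval 4.39 to 5.35) and Slit3 was also lower, whereas Slit2, its relative, was at 720.4 against 290.5 CPM and the receptor Ephb1 at 365 against 119.

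Of 19 factors of cortical projection neurons, 1 was higher (Zfpm2, though lower in set 1) and 6 were lower (5 beyond counting error), median -0.61. Zbtb20, a hippocampal identity factor, was at 656 against 2082 CPM and Neurod6 at 15.7 against 72.5. Of the ROR and REV-ERB receptors other than Rorb, none of 3 reached 2-fold, with Rora at 1119 against 695 CPM (1.61-fold higher, interval 1.47 to 1.76).

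Of 20 vesicle release genes 4 were higher and 1 lower, median 0.24. The higher were Unc13c at 275 against 55.1 CPM, Syt10 at 67.1 against 15.3, Syt6, and Slc17a6, whose UMIs lay only in set 1. Complexin Cplx2 was lower at 17.9 against 46.8. Of 7 neuropeptide genes Adcyap1 (55.9 against 3.56) and Tac1 (13.4 against 3.10) were higher and Cck (22.4 against 60.9) was lower. Of 16 immediate early genes, which neuronal activity induces, none was higher and 2 were lower (1 beyond counting error), median 0.11. None of 6 histone H3K4 methyltransferase genes reached 2-fold, and Setd1b, the gene named in the series title, was at 24.6 against 18.4 CPM (1.34-fold, interval 0.67 to 2.41), with 1 UMI in each of 11 nuclei.

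The Foxp2/Tle4 nuclei were compared with the Cux2/Rorb nuclei at 5313 genes. Of these, 127 were higher by 2-fold or more (2.39%) and 135 lower by as much (2.54%) in the Cux2/Rorb nuclei, with a median of 0.08. Percentages are not comparable across the comparisons, since each needs 100 UMIs over both sides and the groups differ in size. Of 13 layer 6 genes 6 had enough UMIs to compare and none reached 2-fold beside 2.39% and 2.54% of all genes, median -0.02: Hs3st4 was at 1803 against 2819 CPM and Zfpm2 at 895 against 776. Below the count needed, Rprm was at 38.04 against 7.81 CPM and Syt6 at 26.8 against 7.50. Mdga1 was lower, at 15.7 against 73.1 CPM (4.67-fold lower, interval 2.23 to 11.7).

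The genes highest against Foxp2/Tle4 nuclei were Cngb3, Unc13c, Lhfp, Col8a1, Zfhx3, Scg2, Utrn, Dach1, Adarb2 and Pde1c. Unc13c was at 275 against 42.5 CPM (6.48-fold higher, interval 5.03 to 8.32), at 653 against 168 in set 1 and 81.3 against 19.9 in sets 2 to 7. Scg2 was at 183 against 36.9 CPM and Pde1c, a calmodulin-dependent phosphodiesterase, at 224 against 52.8. Among the lowest were Gm2115, Pkp2, Ror1, Lrtm1, Kif1c, Rxfp1, Slc16a10, Trpc4 and Iqgap2. Ror1, a Wnt-binding receptor kinase, was at 26.8 against 217 CPM (8.08-fold lower, interval 4.59 to 15.7) and Iqgap2 at 107 against 453 with UMIs in 20 nuclei. All 3 inhibitory-list genes compared were higher (summed 2101 against 728 CPM, median 1.38, and -0.83 in the 22 nuclei with few glial and vascular UMIs). In those 22 nuclei Cngb3 and Col8a1 were also lower (log2 -2.27 and -0.81). Of 19 cadherins 4 were higher and none lower, and Gria1 was lower at 705 against 2401 CPM and Grin2a at 922 against 2505.

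Against the Tshz2/Fn1/Nts nuclei, a group led by genes of deep-layer and retrohippocampal neurons, 281 of 9273 genes were higher by 2-fold or more (3.03%) and 326 lower by as much (3.52%), median 0.10. All 281 and 279 of the 326 were beyond counting error. Pdzrn3, a ubiquitin ligase, was lowest on the log2 scale, at 24.6 against 416 CPM (16.9-fold lower, interval 9.43 to 33.9). Cemip, Rxfp1, the relaxin receptor, Npsr1, the neuropeptide S receptor, Mkx, Lrtm1, Gm2115, Trabd2b, Ryr1 and Ndst4 followed, with Rxfp1 at 11.2 against 145 CPM and Npsr1 at 11.2 against 143. Etv1 was at 40.3 against 182 CPM, Kcnb2 at 535 against 1419 and Epha3 at 60.4 against 345.

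Highest against that group were Col8a1, Cngb3, Mylk, Zfhx3, Zfhx4, Slit2, Arhgap24, Itpr2, Scg2 and Erbb4. Slit2 was the broadest, at 720.4 against 116 CPM (6.23-fold higher, interval 5.50 to 7.05) with UMIs in 39 nuclei, 883 against 229 in set 1 and 637 against 104 in sets 2 to 7. Zfhx4 was at 190.2 against 23.3 CPM, 461 against 142 in set 1. Zbtb20 was at 656 against 182 CPM, the reverse of its order against all other excitatory nuclei. In the layer 6 list 2 of 6 genes were higher (Sulf1, 103 against 26.97, and Zfpm2, 895 against 381) and Ntng2 was lower. Of 27 guidance genes 5 were higher and 8 lower, median -0.32.

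Against the CA-type nuclei, 699 of 10613 genes were higher by 2-fold or more (6.59%) and 540 lower by as much (5.09%), median 0.14. All 699 and 417 of the 540 were beyond counting error. Dpp10, a subunit that shapes A-type potassium current, was at 9936 against 952 CPM (10.4-fold higher, interval 10.1 to 10.8) with UMIs in 55 of 65 nuclei; it was at 719 against 313 in set 1 and 14672 against 1063 in sets 2 to 7. Col8a1, Zfhx3, Hs3st5, Ebf1, 6330411D24Rik, Cngb3, Chrm2, Rai14 and Grik3 completed the 10 highest. Hs3st5 was at 299.8 against 16.7 CPM, the muscarinic receptor Chrm2 at 175 against 12.2, Grik3 at 286 against 25.3 with UMIs in 35 nuclei, and Rai14 at 114 against 7.04 with 25 nuclei.

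Lowest against the CA-type nuclei were Pkp2, Lrtm1, Crispld1, Gm2115, Mndal, Smoc2, Tafa1, Ccdc3, Nkain3 and Kif1c. Tafa1, a secreted chemokine-like protein, was at 416 against 3488 CPM (8.38-fold lower, interval 7.26 to 9.73), Nkain3 at 145 against 1112, and Mndal and Ccdc3 had no UMI (at least 6.61-fold lower and at least 4.79-fold lower). CA2 and CA3 genes were lower in 5 of 9 (2 of the 5 beyond counting error) and higher in none, median -1.04. Synaptic adhesion genes were higher in 7 and lower in 2 of 22, median 0.58, with Lrrtm3 at 926 against 120.05 CPM, and cadherins higher in 7 and lower in 1 of 19, median 0.67. Guidance genes were higher in 3 and lower in 9 of 25, median -0.72. In set 1 alone the layer 6 list, with a pooled median of 1.03, had a median of -1.26. All 4 comparisons use the same 65 nuclei, so a gene that recurs in them is not seen independently.

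**Figure D5:**
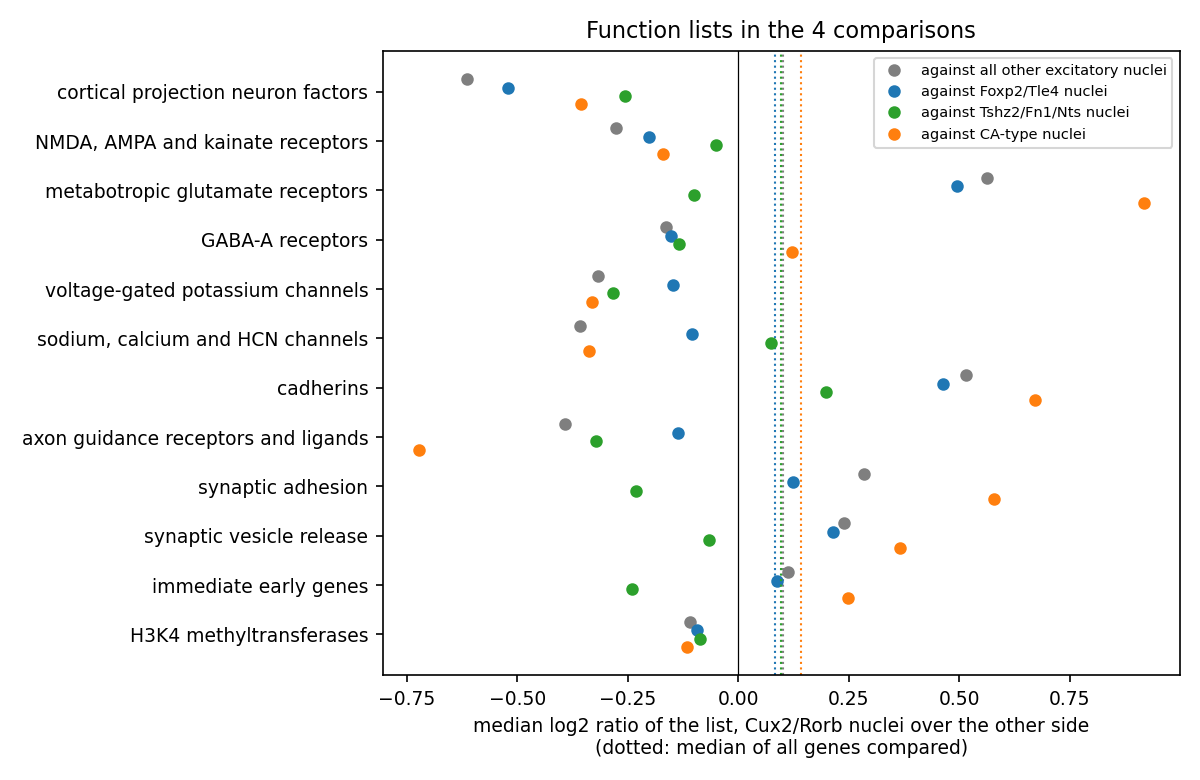
Median log2 ratio (horizontal axis) of each function list (vertical axis) for the Cux2/Rorb nuclei against 4 groups of excitatory nuclei; dotted lines are medians of all genes compared. Cadherins lie to the right in all 4, between 0.20 and 0.67, and guidance genes to the left, between -0.72 and -0.14.

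Nuclei with more Cux2 than Rorb and those with more Rorb were unequally spread over these kinds of nuclei. Of 710 genes compared between these 15 and 47 nuclei, 34 were higher by 2-fold or more (4.79%) and 73 lower by as much (10.3%) in the Cux2-led, median -0.09. Hs3st4 was at 203 against 2251 CPM (11.1-fold lower, interval 6.86 to 19.1), Dpp10 at 1316 against 12749, Oprm1 at 47.9 against 369.7 and the metabotropic receptor Grm3 at 59.8 against 438, genes of which Hs3st4 defined the 28 nuclei, 27 of them Rorb-led. Slc1a2, a glutamate transporter and a gene of the astrocyte list, was at 35.9 against 382 CPM, with a UMI in 72.3% of the Rorb-led nuclei. Adamtsl1, Cntnap4, Dlc1 and Itpr1 were also among the 10 lowest. Col8a1 had 119 UMIs in the Rorb-led and none in the Cux2-led nuclei.

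Higher in the Cux2-led were Maml2, a Notch coactivator (862 against 130.2 CPM), the kinase Fyn (862 against 157), the matrix protein Tnr (3423 against 657), Frmd4a, Nfasc, Qk, Tmem108, Plcl1, Alcam and Gpc6. Tnr, Nfasc and Qk are also genes of the oligodendrocyte lineage, and that marker list summed to 1819 CPM in the Cux2-led and 118 in the Rorb-led nuclei. Among the Cux2-led, 1 nucleus of set 3 held 101 UMIs of the oligodendrocyte and precursor lists together and 1 of set 4 held 49. Of 505 Frmd4a UMIs, 348 were in 1 nucleus, and its ratio was 5.52, or 1.90 without it. Without its highest nucleus each of the others also fell nearer to 1: Tnr from 5.21 to 2.63, Maml2 from 6.62 to 3.98, Fyn from 5.50 to 3.55, and below 2-fold for Qk (1.68) and Alcam (1.90). Among nuclei with under 3 glial and vascular UMIs, Nfasc, Qk and Tmem108 were lower in the Cux2-led (log2 -1.26, -0.58 and -0.39). Without set 3, 55 of 446 genes compared (12.3%) passed the 2-fold mark in either direction, in place of 107 of 710 (15.1%).

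Genes whose levels ran most like Cux2 and Rorb were looked up over 18 groups, each the nuclei led by 1 marker sum in 1 barcode set with at least 20 nuclei. These points share libraries and depth and 1 of them is the selected nuclei of set 1, so the correlations of log2 values are descriptive. For Cux2 the closest were Grm4 (Pearson r = 0.959, and 0.952 without the selected nuclei), Sgpp2, Cntnap5a, Ccdc192, Cux1 (0.907 and 0.889), Plxdc1, Camk2d and Bmper. Outside the selected nuclei Cux2 was highest, at 134 CPM, in the Tshz2/Fn1/Nts nuclei, with 19.4 in the Foxp2/Tle4 and 20.5 in the CA-type nuclei. For Rorb the closest were Col8a1 (0.893 and 0.801), A430033K04Rik, Slc6a11, Sil1, Zcchc3, Pold3, Rxrg (0.844 and 0.697) and Tulp4, and outside the selected nuclei Rorb was highest in the Foxp2/Tle4 nuclei, at 103 CPM, with 28.9 in the Tshz2/Fn1/Nts and 14.2 in the CA-type nuclei.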

How the data were processed

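Single-nucleus RNA was measured in 10 hippocampus samples of 1 group. Values in the deposited matrix are whole-number UMI counts, for each gene in each barcode, unscaled; the file headers name Cell Ranger 4.0.0. The builds mm10 and GRCm38 come from the submitters' processing notes. The annotation release, the counting of introns and any further filter on barcodes are not stated there. Of 24837 genes, 5612 had no UMI.

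Members, groups, gene lists and the rule for named genes were chosen with earlier results of these data known. UMIs were summed over the nuclei of a side and divided by its total (CPM). Genes outside the rule with at least 100 UMIs over both sides were compared, as log2 ratios with 5 CPM added, and counted from 2-fold. Named genes are those of the lists, Setd1b, the 10 highest and 10 lowest that lay on the same side in every barcode set with at least 20 nuclei on each side, which was set 1 alone (in no set for the Cux2-led comparison), and the 8 most like Cux2 and Rorb. Genes and kinds of nuclei picked after values were seen are given as such in the text. Genes given for a kind against the other selected nuclei were picked by ratio. They had at least 20 UMIs in the kind and UMIs in at least 50% of its nuclei. Intervals (95%) are exact for a pair of Poisson counts, or exact binomial. With 1 sample, no test was made. Dlx6os1 of the inhibitory list was not used here, and a few list genes are not reported here by name. Gene positions are from GENCODE M21 (24715 of 24837 identifiers matched). Depth per barcode set and alternatives were computed with Python 3.11.15, numpy 2.4.6, scipy 1.17.1, pandas 2.3.3 and matplotlib 3.10.9, after the scripts had been tested on simulated data.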

Additional observations from a re-analysis of the deposited data

How the results depend on the processing

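With 1 pooled sample, the values describe these nuclei, and the few UMIs per nucleus limit every gene below about 100 UMIs. No paired analysis was possible because no barcode set is tied to a sample and all samples form 1 group. The number of 65 nuclei became 38 when Cux2 and Rorb had to reach 5 UMIs, and 22 without nuclei holding 3 or more UMIs of glial and vascular lists; the removal of oligodendrocyte-lineage nuclei and the values of single sets were chosen after seeing the data. The cause of the changes below was not tested.

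Counts of genes past 2-fold depended on the settings, and leaving out 1 barcode set at a time gave 1037 to 1456 (main 1062) against all other excitatory nuclei, 219 to 281 (262) against Foxp2/Tle4, 544 to 795 (607) against Tshz2/Fn1/Nts, 1128 to 1469 (1239) against CA-type nuclei and 55 to 130 (107) for Cux2-led against Rorb-led. Without nuclei with glial or vascular UMIs the counts were 2368 of 9280 genes compared against all others (25.5%, main 8.61%). They were 164 of 999 against Foxp2/Tle4 (16.4%, main 4.93%) and 24 of 124 for Cux2-led (19.4%, main 15.1%). Thinned to 2000 UMIs a nucleus, they were 2022 of 9374 (21.6%), 92 of 1332 (6.91%) and 29 of 132 (21.97%). Fewer genes were compared under both settings than in the main one, so these shares rose even where the counts fell. With mean UMIs per nucleus the counts were 606 against Foxp2/Tle4, 2486 against CA-type and 166 for Cux2-led. With 1 CPM added they were 2289 against all others, 926 against Tshz2/Fn1/Nts and 1975 against CA-type, and with 20 CPM 363, 156, 221 and 517 for the first 4 comparisons in order. With 20 UMIs as the minimum they were 758 (7.35%) against Foxp2/Tle4, 917 (7.19%) against Tshz2/Fn1/Nts and 751 (18.9%) for Cux2-led. With 500 they were 90 (7.16%) and 210 (5.35%) for the first 2 of these, 591 (10.2%) against CA-type and 15 (16.0%) for Cux2-led. In set 1, the only set with 20 nuclei on each side, they were 2828, 845, 1556 and 2694. In single sets over genes with enough UMIs pooled, they were 236 (9.86%) in set 1 against Tshz2/Fn1/Nts. Against all others they were 2170 (23.8%) in set 2 and 1789 (20.6%) in set 3, and 148 (7.17%) and 167 (11.0%) in those sets against Foxp2/Tle4. The Cux2-led comparison had no set with enough nuclei for such values.

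Among genes and lists at 2-fold or more, 34 gene values and 9 list medians changed direction under an alternative. Of the rest, 1789 gene values stayed within their counting interval and 597 did not, and 2519 medians moved by less than 1.5-fold and 217 by more. On the log2 scale, without nuclei with glial or vascular UMIs, Cngb3 was at -1.28, Mpp4 at -0.91 and Car8 at -0.14 against all others. Under the same setting Cngb3 (-2.27), Col8a1 (-0.81) and the inhibitory list (-0.83) turned against Foxp2/Tle4, Cngb3 (-1.67) against Tshz2/Fn1/Nts, Ebf1 (-0.10) and Cngb3 (-1.23) against CA-type, and Nfasc (-1.26), Qk (-0.58) and Tmem108 (-0.39) for Cux2-led. Without oligodendrocyte-lineage nuclei Itpr2 was at -0.25 against Tshz2/Fn1/Nts, and Nfasc (-0.76) and Qk (-0.18) turned for Cux2-led. In set 2 alone Adcyap1 was at -0.45 against all others, Utrn at -2.25 and Dach1 at -0.0091 against Foxp2/Tle4, Itpr2 at -1.92 and Erbb4 at -0.31 against Tshz2/Fn1/Nts, and Ebf1 at -1.18 against CA-type. In set 3 alone Cngb3 (-0.53), Sim1 (-0.32), Mylk (-1.36) and Mpp4 (-0.87) turned against all others, Cngb3 (-0.22), Col8a1 (-1.79) and Zfhx3 (-0.50) against Foxp2/Tle4, Cngb3 (-0.085), Mylk (-1.22) and Zfhx3 (-0.27) against Tshz2/Fn1/Nts, and Cngb3 (-0.84) against CA-type. List medians that turned were oligodendrocyte precursor genes against all others (-0.13 without set 4, -1.44 in set 1), layer 6 genes (-0.89, and -1.26 in set 1 alone) and thalamic genes (-0.45 in set 1) against CA-type, and neuropeptides (0.084 with 20 UMIs as the minimum) against Tshz2/Fn1/Nts. For Cux2-led nuclei the projection neuron factors turned to 0.45 with 5 UMIs of Cux2 and Rorb and to 0.073 without set 2, as did Frmd4a (-1.34) and Nfasc (-0.40) with 5 UMIs, and Alcam (-0.076) without set 2.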
